A study of Mus musculus with 8 samples.

Results

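The proteasome genes described here are all genes of the count tables whose symbol is Psm followed by a letter from a to g and a number. The symbol chose them and no measured value did. There were 48 such genes among 23337 in the tables, and 47 of them passed the filter on low counts and were tested, with 14328 genes tested in all. The remaining gene, Psmb11, which codes for a catalytic subunit known from the thymic cortex, had 0 counts in every sample, and 3 counts, the detection floor used here, corresponded to 0.0508 to 0.0788 CPM (counts scaled to the size of the library). By subcomplex the genes comprised 8 alpha subunits (Psma) and 7 constitutive beta subunits (Psmb1 to Psmb7) of the 20S core. Another 4 were inducible or tissue-restricted beta subunits (Psmb8 to Psmb11). The 19S regulator contributed 6 ATPases (Psmc), 11 non-ATPase subunits (Psmd) and 3 further Psmd genes (Psmd5, Psmd9 and Psmd10), which encode chaperones of 19S assembly rather than subunits of the mature particle. The last groups were 5 activators and inhibitors (Psme1 to Psme4 and Psmf1) and 4 chaperones of 20S assembly (Psmg).

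The 26S proteasome degrades proteins that carry ubiquitin chains. Its 20S core is a barrel of alpha and beta rings whose beta subunits hold the protease sites, and its 19S regulator binds ubiquitin, removes it, unfolds the substrate and feeds it into the core. HRD1, encoded by Syvn1, is a ubiquitin ligase of the endoplasmic reticulum (ER) that marks misfolded ER proteins, which are then pulled into the cytosol by the ATPase VCP and degraded by this machine. Interferon induces 3 alternative catalytic subunits, which replace the constitutive ones and yield peptides for MHC class I, and the transcription factors NRF1 and NRF2 (Nfe2l1 and Nfe2l2) can induce many proteasome genes through antioxidant response elements.

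RNA-seq was performed on liver of C57BL/6 mice at 12 weeks of age, with 2 samples in each of 4 groups. WT mice (by the paper, mice with floxed HRD1 alleles and no Cre) were compared with HRD1Alb mice, labelled Hrd1-/-. In the latter, Cre recombinase under the Albumin promoter deletes HRD1 in hepatocytes, by the paper from early in liver development. Liver cells in which this promoter was never active keep the gene. In each genotype one group was fasted overnight and the other was fasted overnight and refed for 4 h. The design asks how hepatocyte HRD1 loss, feeding, and their combination relate to mRNA levels. Neither the labels nor the methods say that the 2 samples of a group came from separate animals, so every p-value measures only the spread between these samples, which may be technical.

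Total counts ranged from 40210576 to 49117080 per sample, and CPM values are given after TMM normalization. The targeted gene Syvn1 was at 111 and 99.8 CPM in fasted WT and at 32.6 and 31.5 CPM in fasted HRD1Alb liver, so that the fasted groups did not overlap. After refeeding it was at 637 and 305 CPM in WT and at 453 and 132 CPM in the libraries labelled HRD1Alb, and replicate 1 of the latter lay between the WT values. Syvn1 therefore does not check the labels of the refed samples, whose directions are given below as those of the libraries so labelled. The 6 hepatocyte markers summed to 134683 and 147154 CPM in fasted WT, 86029 and 86505 CPM in fasted HRD1Alb, 109738 and 115978 CPM in WT refed and 62377 and 100830 CPM in HRD1Alb refed libraries, and 5 of the 6 in fasted and 4 in refed liver lay lower in both samples labelled HRD1Alb. All 4 stellate cell markers lay higher in those samples in both feeding states. Of all tested genes, 34.2% in fasted and 30.1% in refed liver lay lower in both samples labelled HRD1Alb than in both WT samples. The shares that lay higher were 30.6% and 30.7%. The 8 Kupffer cell markers summed to 115 to 131 CPM in WT samples and to 280 to 636 CPM in samples labelled HRD1Alb. In bulk tissue, fewer cells of a type and less RNA per cell cannot be told apart.

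One library stood apart. The ratio of replicate 2 to replicate 1 of the HRD1Alb refed group fell with transcript length, with Spearman's rho of -0.58 across 12968 tested genes with a known length, against -0.12 to 0.05 in the other 3 groups. Genes with transcripts of up to 1000 bases had a median log2 ratio of 0.86, and those over 4000 bases had -0.63. Proteasome transcripts are short, with a median of 1382 bases against 2621 bases over tested genes with a length. Within each length class, however, their median log2 ratio in this group lay above that of all tested genes. It was 1.23 against 0.86 up to 1000 bases and 0.79 against 0.39 from 1000 to 2000 bases. From 2000 to 4000 bases it was 0.18 against -0.15, and over 4000 bases, with 2 proteasome genes, -0.37 against -0.63. Of the 47 tested proteasome genes, 40 were higher in replicate 2 and 15 differed at least 2-fold, and the median coefficient of variation of the pair was 38.2% against 3.01 to 4.45% in the other groups. In the 3 other groups the same comparison found 0 or 1 proteasome gene with a 2-fold difference. The largest ratios were those of Psmb8 (3.85), Psmb9 (3.73) and Psmb10 (3.06), whose transcripts are 1628, 1352 and 1311 bases long. The smallest were those of Psme3 (0.709) and Psme4 (0.720), with transcripts of 2664 and 6491 bases. Next came Psma8 (0.790), with a transcript of 1357.5 bases and low counts (54 and 32 in replicates 1 and 2). What set the order of these ratios was not tested. Results were therefore computed with and without this library, and leaving it out leaves 1 refed HRD1Alb sample, which is then assumed to vary like the other groups. The correlations are across genes, which are not independent replicates.

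**Figure D1:**
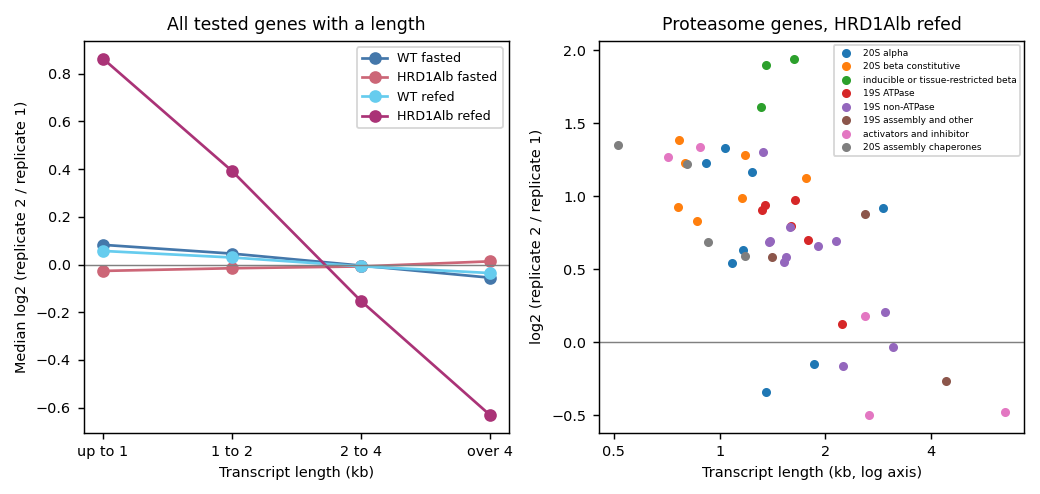
Left, median log2 ratio of replicate 2 to replicate 1 (y axis) by transcript length in kb (x axis) for each group, over all tested genes with a length; right, the same log2 ratio for each of the 47 tested proteasome genes in the HRD1Alb refed group against transcript length on a log axis, coloured by subcomplex. The HRD1Alb refed medians run from 0.86 in the shortest to -0.63 in the longest transcripts, those of WT fasted from 0.08 to -0.06 and those of WT refed from 0.06 to -0.04, and 40 of the 47 proteasome genes lie above 0.

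Levels differed widely between subcomplexes when counts were scaled by transcript length. Over the 8 samples the median member reached 93.2 CPM per kb among constitutive beta subunits, 76.4 among 19S ATPases, 62.4 among 19S non-ATPase subunits and 50.4 among alpha subunits. The assembly chaperones Psmg1 to Psmg4 had a median of 20.2 CPM per kb, and the 3 detected inducible beta subunits had 12.0. Psmb6, which carries the caspase-like site, Psmb4 and the alpha subunit Psma6 were the core genes with the highest levels, at 174, 164 and 157 CPM per kb, and their order differed between groups. In fasted WT liver they were at 137, 143 and 163 CPM per kb, and in fasted HRD1Alb liver at 135, 125 and 112. Psmb5, which carries the chymotrypsin-like site, was the lowest of the constitutive beta genes at 35.0 CPM per kb. Among ATPases the range ran from Psmc6 (47.5 CPM per kb) to Psmc4 (110), and among non-ATPase subunits from Psmd11 (27.7) to Psmd4 (137), the ubiquitin receptor Rpn10. Psma8, an alpha subunit of the testis, was close to absent at 0.574 CPM per kb, with 0.309 to 1.62 CPM in single samples. These levels rest on a transcript length per gene from the annotation and not on the isoforms present.

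Promoter sequences were available for 40 of the 48 genes in the RefSeq promoter table (GRCm38.p6). The 250 bases before each start site were searched on both strands for TGACNNNGC, the core of the antioxidant response element, and for CCAAT. The antioxidant core was found in 5 of the 43 proteasome promoters (11.6%) and in 10.2% of all 32851 promoters. CCAAT was found in 14 (32.6%), against 33.8% of all promoters. Neither share stood far from that of all promoters, and a match is a description of letters and not of binding. The 5 stretches that hold the antioxidant core are shown because this element is the one through which NRF1 and NRF2 are known to act, written 5′ to 3′ on the gene's strand with the element in capitals.
Psmd9: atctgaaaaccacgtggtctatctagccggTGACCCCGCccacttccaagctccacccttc
Psmb6: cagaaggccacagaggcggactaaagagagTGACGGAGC
Psmb5: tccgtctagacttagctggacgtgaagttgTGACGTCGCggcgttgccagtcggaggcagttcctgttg
Psmc6: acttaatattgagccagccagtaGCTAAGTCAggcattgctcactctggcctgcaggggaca
Psmd12: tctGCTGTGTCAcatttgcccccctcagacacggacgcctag
The Psmd9 stretch lies at chr5:123228129-123228189 on the plus strand, that of Psmb6 at chr11:70525318-70525356 (plus) and that of Psmb5 at chr14:54618004-54618072 (minus). The Psmc6 stretch at chr14:45329574-45329635 and the Psmd12 stretch at chr11:107479278-107479319, both of genes on the plus strand, hold the element on the opposite strand. In Psmb6, Psmd9 and Psmb5 it ended 1, 23 and 39 bases before the start, and in Psmc6 and Psmd12 it ended 219 and 239 bases before it. These 5 genes differed in the size of their values in fasted HRD1Alb against WT liver, all of which were negative. Without HRD1Alb refed replicate 2, Psmd9, Psmc6 and Psmd12 were called lower, and the log2 fold change was -0.34 for Psmb5 (adjusted p = 0.0506) and -0.03 for Psmb6 (adjusted p = 0.857, both edgeR).

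In fasted liver, most proteasome genes were lower in HRD1Alb than in WT. Of the 47 tested genes, 41 had a negative log2 fold change, with a median of -0.46 against -0.02 over all tested genes, and in 38 both HRD1Alb samples lay below both WT samples. For comparison, 34.2% of all tested genes lay apart in this direction. Only 4 genes, Psmd8, Psmd13, Psme2 and Psmg4, lay apart upward, where 30.6% of all tested genes did. With scaling by total counts alone, which raised the median of all tested genes by 0.38, 26 of the 47 values were negative, but 40 lay below the median of all tested genes, compared with 41 after TMM normalization.

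Few of these differences passed the test when all 8 samples shared 1 estimate of spread. edgeR's quasi-likelihood test called 1 proteasome gene lower (Psmd1) and 0 higher at an adjusted p under 0.05, where 0.433% of all tested genes were called lower and 0.921% higher. At an unadjusted p under 0.05 there were 16 lower and 0 higher (all tested genes, 7.43% and 10.9%). DESeq2 called 6 lower and 0 higher (3.11% and 4.21%), limma-trend 3 and 0 (0.614% and 1.2%), and scaling by total counts 0 and 0 (0.328% and 5.86%). When HRD1Alb refed replicate 2 was left out, which is not part of the contrast but enters the estimate of spread, the median stayed at -0.46 and 29 genes were called lower and 1 higher (Psmg4), against a background of 11.8% lower and 10% higher. Leaving out HRD1Alb refed replicate 1 instead, the counts were 30 and 1 (all tested genes, 11.9% and 10.1%), and with the 4 fasted samples alone they were 22 and 0 (6.32% and 8.26%). Leaving out a fasted sample or a WT refed sample left 0 genes called lower. The summed hepatocyte markers were also lower in both fasted HRD1Alb samples, and their part in these differences was not tested.

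**Figure D2:**
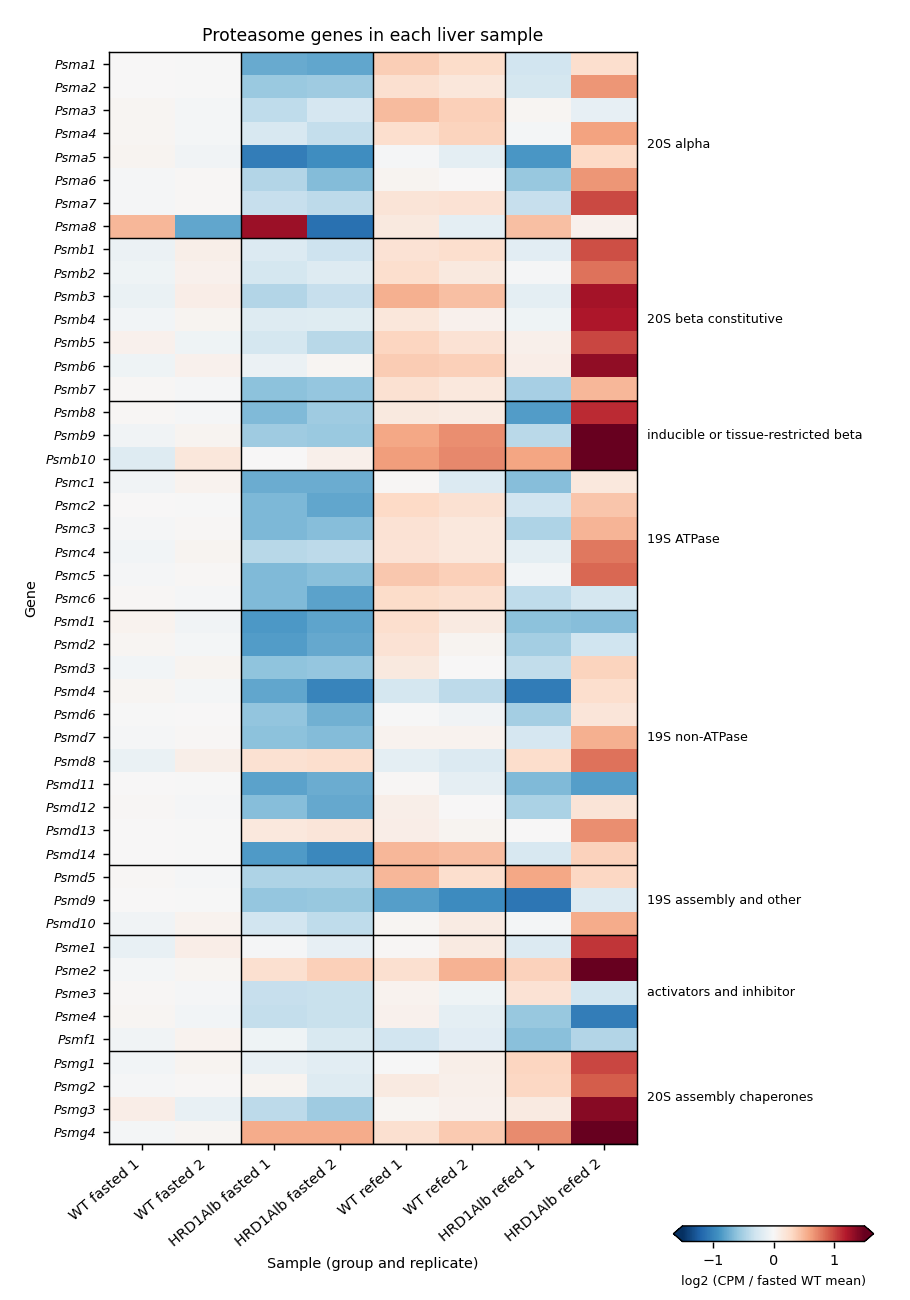
Each row is one of the 47 tested proteasome genes, grouped by subcomplex, and each column a liver sample; colour gives log2 of CPM over the mean of the fasted WT samples, clipped at -1.5 and 1.5. Most rows are blue in both fasted HRD1Alb columns, with a median over the 47 genes of -0.44 and -0.53, and the 2 refed HRD1Alb columns differ (-0.25 and 0.56).

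Among the alpha subunits, which form the outer rings and gate the barrel, 7 of 8 were lower in both fasted HRD1Alb samples, with a median log2 fold change of -0.46. Psma5 was at 26.0 and 24.4 CPM in fasted WT and at 12.3 and 13.2 CPM in fasted HRD1Alb liver, a log2 fold change of -0.98 ± 0.34 (SE) with an adjusted p of 0.187 by edgeR. With HRD1Alb refed replicate 2 left out the SE was 0.10 and the adjusted p 0.0035. Psma1 was at 111 in both WT samples and at 65.5 and 64.3 CPM in HRD1Alb samples, with log2 fold changes of -0.77 ± 0.20 and, without that library, -0.77 ± 0.08 (adjusted p = 0.107 and 0.00378, edgeR). Psma6, the alpha gene with the highest CPM, was at 148 and 151 CPM in WT and at 110.4 and 95.1 CPM in HRD1Alb liver. In each of these genes the groups did not overlap. With that library left out 5 alpha genes were called lower (Psma1, Psma2, Psma5, Psma6 and Psma7). Psma3 and Psma4 had smaller values of -0.31 and -0.30, and neither was called. Psma8 had a log2 fold change of 0.53 ± 0.75 at a level near 1 CPM, and its groups overlapped.

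Constitutive beta subunits had smaller values. All 7 had negative log2 fold changes in the fasted comparison, from -0.60 (Psmb7) to -0.03 (Psmb6), with a median of -0.26. Psmb7, which carries the trypsin-like site, was at 113 and 110 CPM in fasted WT and at 73.3 and 74.8 CPM in fasted HRD1Alb liver. Psmb5 was at 24.6 and 22.4 CPM in fasted WT and at 19.5 and 17.6 CPM in fasted HRD1Alb liver. Psmb6 was at 105 and 114 CPM in fasted WT and at 103 and 112 CPM in fasted HRD1Alb liver, so that its groups overlapped. Differences between these 3 catalytic subunits were not tested. Psmb4, the constitutive beta gene with the highest CPM, was at 164 and 174 CPM in fasted WT and at 148 and 149 CPM in fasted HRD1Alb liver. Psmb3 and Psmb7 were called lower without HRD1Alb refed replicate 2 (adjusted p = 0.0323 and 0.00657, edgeR), and none was called with all 8 samples. With total-count scaling the median of these 7 genes was 0.13.

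In the 19S regulator all 6 ATPases, which unfold substrates, were lower in both fasted HRD1Alb samples, with log2 fold changes from -0.75 to -0.40. Psmc6 was at 120 and 117 CPM in fasted WT and at 74.7 and 67.9 CPM in fasted HRD1Alb liver, with a log2 fold change of -0.73 ± 0.14 (adjusted p = 0.0611, edgeR, 8 samples). Psmc5 was at 101 and 103 CPM in fasted WT against 64.7 and 66.2 CPM in fasted HRD1Alb liver. Psmc4, which had the smallest difference, was at 136 and 144 CPM against 105 and 107 CPM. None of the 6 was called with all 8 samples, and all 6 were called lower without HRD1Alb refed replicate 2.

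Non-ATPase subunits were divided. In fasted liver 9 of 11 were lower in both HRD1Alb samples and 2 were higher in both, with a median log2 fold change of -0.70. Psmd1 (chr1:86064387-86139151, plus strand, GENCODE M21 on GRCm38), which encodes the scaffold Rpn2 of the 19S base, was at 201 and 186 CPM in fasted WT and at 106 and 112 CPM in fasted HRD1Alb liver. The HRD1Alb level was 0.563-fold that of WT, with a log2 fold change of -0.83 ± 0.14 and an adjusted p of 0.0484 (edgeR). Over the 18 alternatives its adjusted p ran from 1.38e-05 to 0.415 and its log2 fold change from -0.93 to -0.45. Psmd11, Psmd2, Psmd14 and Psmd4 followed, with -0.77, -0.80, -0.91 and -0.88 and adjusted p-values of 0.0569, 0.0575, 0.0838 and 0.265 (edgeR). Psmd2 encodes the other large scaffold Rpn1, Psmd11 the lid subunit Rpn6, and Psmd14 the deubiquitinase Rpn11. Psmd14 was at 66.7 and 66.1 CPM in fasted WT and at 36.8 and 33.8 CPM in fasted HRD1Alb liver. Psmd4 was at 234 and 224 CPM in fasted WT, at 134 and 115 CPM in fasted HRD1Alb, at 192 and 174 CPM in WT refed and at 111 and 274 CPM in the HRD1Alb refed libraries.

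The 2 exceptions were Psmd8 and Psmd13, both of which encode lid subunits. Psmd8 was at 139 and 159 CPM in fasted WT and at 174 and 177 CPM in fasted HRD1Alb liver (log2 fold change 0.24 ± 0.20, adjusted p = 0.601, edgeR). Psmd13 was at 86.1 and 85.4 CPM against 95.5 and 96.9 CPM (0.17 ± 0.22, adjusted p = 0.763). Neither was called without HRD1Alb refed replicate 2 (adjusted p = 0.122 and 0.18). Psmd13 shares exon sequence with Sirt3 on the opposite strand, and whether counting used strand is not given in the sources used here, so reads of the pair may not be separated. Psmd1 likewise overlaps Htr2b.

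The assembly chaperones of the 19S base, Psmd5, Psmd9 and Psmd10, were lower in both fasted HRD1Alb samples, with log2 fold changes of -0.47, -0.58 and -0.33. Psmd9 was at 102 and 101 CPM in fasted WT and at 67.8 and 68.4 CPM in fasted HRD1Alb liver, and Psmd10 at 11.7 and 12.5 CPM against 9.90 and 9.30 CPM. Both directions occurred among the 20S assembly chaperones. Psmg1 and Psmg2 had log2 fold changes of -0.13 and -0.08, Psmg3 was at 19.2 and 16.5 CPM in WT and at 13.6 and 12.3 CPM in HRD1Alb liver (-0.46 ± 0.36), and Psmg4 was at 4.59 and 4.74 CPM in WT and at 6.88 and 6.87 CPM in HRD1Alb liver (0.56 ± 0.40). With HRD1Alb refed replicate 2 left out, Psmg3 was called lower and Psmg4 higher (adjusted p = 0.0287 and 0.0334, edgeR), and neither was called with all 8 samples (adjusted p = 0.549 and 0.516). Psmg3 and Psmg4 form a pair in cells, and the members of this pair differed in direction.

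Activators are alternative caps of the core. Psme1 and Psme2 form the interferon-induced 11S cap, Psme3 the nuclear 11S cap, Psme4 encodes the large nuclear activator PA200, and Psmf1 the inhibitor PI31. In fasted liver Psme1 was at 65.5 and 75.9 CPM in WT and at 69.6 and 64.8 CPM in HRD1Alb samples, and Psme2 at 17.5 and 18.2 CPM against 21.1 and 22.9 CPM. Psme3 was at 89.5 and 86.9 CPM in WT and at 69.4 and 70.1 CPM in HRD1Alb liver, and Psme4 at 200.1 and 191 CPM against 152 and 154 CPM. Psmf1 was at 50.4 and 53.9 CPM against 50.04 and 44.4 CPM. Only Psme3 and Psme4 were called lower without HRD1Alb refed replicate 2 (adjusted p = 0.0336 and 0.0479, edgeR), and none of the 5 with all 8 samples.

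**Figure D3:**
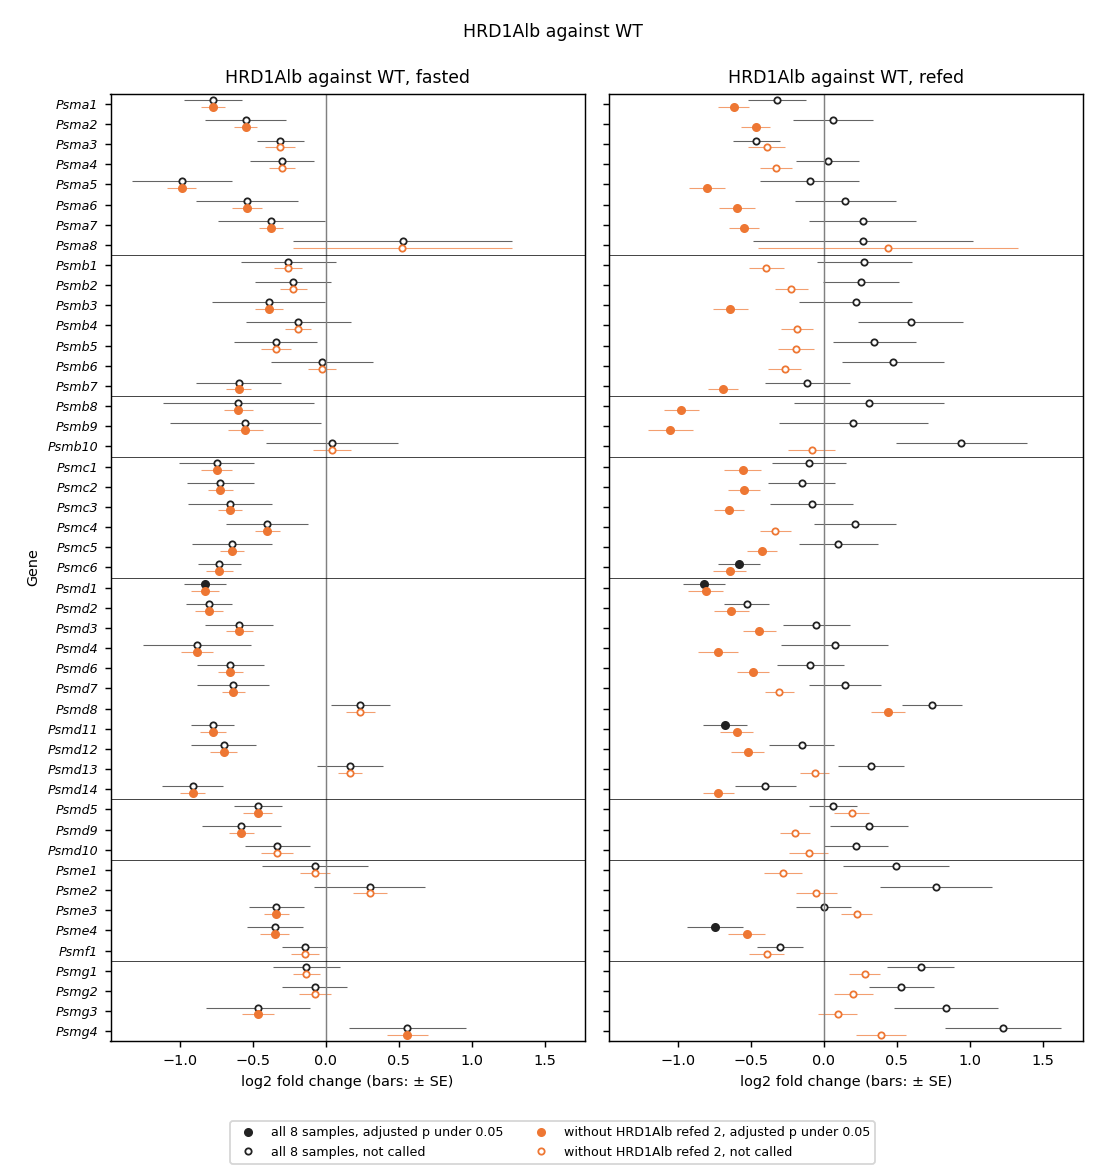
log2 fold change of HRD1Alb against WT (x axis, bars ± SE) for the 47 tested proteasome genes (y axis) in fasted (left) and refed (right) liver, with all 8 samples (black) and without HRD1Alb refed replicate 2 (orange); filled points have an adjusted p under 0.05. In fasted liver both fits give 41 negative values, with 1 and 29 genes called lower; in refed liver 18 values are negative with all 8 samples and 39 without that library. With total-count scaling 26 values in fasted and 9 in refed liver are negative.

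In refed liver the comparison depended on which library labelled HRD1Alb was used. With all 8 samples the median log2 fold change of the proteasome genes was 0.14 against 0.04 over all tested genes. edgeR called 4 genes lower (Psmd1, Psmd11, Psmc6 and Psme4) and 0 higher, where 4.84% of all tested genes were called lower and 7.09% higher. At an unadjusted p under 0.05 there were 6 lower and 5 higher (all tested genes, 14.5% and 18.8%). DESeq2 called 5 lower and 2 higher (10.1% and 11.4%), limma-trend 4 and 0 (5.35% and 6.76%), and total-count scaling 0 and 4 (1.98% and 13.8%). Leaving out HRD1Alb refed replicate 2 gave a median of -0.39 against 0.00 over all tested genes, and 23 genes were called lower and 1 higher, with backgrounds of 11.9% and 12.4%. Leaving out replicate 1 instead gave a median of 0.48, and 6 genes were called lower and 30 higher, where 28.1% and 25.6% of all tested genes were. After correction for transcript length in all 8 samples the median was -0.25, with 36 of 47 values negative, 6 called lower and 0 higher (all tested genes, 10.7% and 8.38%).

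The 4 genes called lower with all 8 samples were among those with the smallest gap between the refed HRD1Alb libraries. Of the 18 alternatives, 12 kept the call for Psmd1, 10 for Psmd11, 7 for Psmc6 and 7 for Psme4. With the 4 refed samples alone none was called, and the adjusted p of Psmd1 was 0.147 (edgeR). Psmd1 was at 230.0 and 212 CPM in WT refed and at 126 and 124 CPM in the libraries labelled HRD1Alb, with a log2 fold change of -0.82 ± 0.14 and an adjusted p of 0.0195 (edgeR). Its adjusted p was from 8.24e-06 to 0.159 over the 18 alternatives. Psmd11 was at 79.5 and 71.7 CPM against 50.02 and 44.6 CPM (-0.68 ± 0.15, adjusted p = 0.0332, range 0.000752 to 0.214). Psmc6 was at 143 and 139 CPM against 90.3 and 98.7 CPM (-0.58 ± 0.14, adjusted p = 0.0447, range 0.00531 to 0.241). Psme4 was at 204 and 176 CPM against 132 and 94.8 CPM (-0.75 ± 0.19, adjusted p = 0.0487, range 0.000715 to 0.255). All 4 were called lower both without replicate 1 and without replicate 2 of the HRD1Alb refed group. In each, the groups did not overlap, which held downward for 9 proteasome genes and 30.1% of all tested genes, and upward for 5 proteasome genes (Psmd8 and Psmg1 to Psmg4) and 30.7% of all tested genes.

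Psmd8 stood out in the opposite direction. It was at 135 and 129 CPM in WT refed and at 179 and 262 CPM in the libraries labelled HRD1Alb, a log2 fold change of 0.74 ± 0.20 (adjusted p = 0.0568, edgeR). It was called higher without HRD1Alb refed replicate 2 (0.44 ± 0.12, adjusted p = 0.035) and without replicate 1 (0.99, adjusted p = 0.00049). Psmg1, Psmg2, Psmg3 and Psmg4 had log2 fold changes of 0.66, 0.53, 0.83 and 1.23 with adjusted p-values of 0.097, 0.145, 0.149 and 0.0833. Without replicate 2 these were 0.28, 0.20, 0.09 and 0.39, and none was called.

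The fasted and refed genotype comparisons use different samples but come from the same fit, with a shared estimate of spread for each gene. A gene with low spread can therefore be called in both. Without HRD1Alb refed replicate 2 the refed HRD1Alb group has no replicate, and the lists of the comparisons overlapped. Of the 29 proteasome genes called lower in fasted liver, 23 (79.3%) were also called lower in refed liver, and these were all of the 23 (100%) called there. Over all tested genes the corresponding shares were 54.8% of the 1690 fasted and 54.4% of the 1701 refed calls. Psmc4, Psmd5, Psmd7, Psmd9, Psme3 and Psmg3 were called lower in fasted liver alone, and the difference between the conditions did not pass the interaction test for any of them.

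The inducible catalytic subunits had the largest gaps of the tested proteasome genes between the HRD1Alb refed libraries, whereas their WT refed values lay close together. Psmb8 (chr17:34197721-34201454) and Psmb9 (chr17:34181987-34187764) lie in the MHC class II region, and Psmb10 at chr8:105935735-105938444. In fasted liver Psmb8 was at 19.2 and 18.7 CPM in WT and at 11.9 and 13.1 CPM in HRD1Alb samples, and Psmb9 at 8.45 and 9.03 CPM against 6.02 and 5.92 CPM. Psmb10 was at 12.1 and 15.5 CPM against 13.9 and 14.6 CPM, so that 2 of the 3 subunits lay apart downward and the third overlapped. The log2 fold changes were -0.60, -0.55 and 0.04, and Psmb8 and Psmb9 were called lower without HRD1Alb refed replicate 2 (adjusted p = 0.00948 and 0.0229, edgeR) but not with all 8 samples (0.602 and 0.635).

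After refeeding Psmb8 was at 20.9 and 20.7 CPM in WT and at 10.6 and 41.0 CPM in the libraries labelled HRD1Alb. Psmb9 was at 13.1 and 14.2 CPM against 6.58 and 24.8 CPM, and Psmb10 at 21.3 and 22.7 CPM against 20.8 and 63.8 CPM. In all 3 genes the HRD1Alb refed libraries lay on both sides of the WT values. The log2 fold changes of Psmb8 and Psmb9 against WT refed were -0.97 ± 0.12 and -1.05 ± 0.15 without HRD1Alb refed replicate 2 (adjusted p = 0.00341 and 0.00551, edgeR) and 0.98 and 0.86 without replicate 1 (adjusted p = 0.000363 and 0.00139), so the direction turned with the library.

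Ratios within a library do not depend on its scaling. The ratio of Psmb8 to its constitutive counterpart Psmb5 was 0.777 and 0.833 in fasted WT, 0.610 and 0.743 in fasted HRD1Alb, 0.712 and 0.758 in WT refed and 0.426 and 0.868 in HRD1Alb refed libraries. The ratio of Psmb9 to Psmb6 was 0.0808 and 0.0791 in fasted WT and 0.0584 and 0.0530 in fasted HRD1Alb liver. The ratio of Psmb10 to Psmb7 was 0.107 and 0.141 in fasted WT and 0.190 and 0.195 in fasted HRD1Alb liver. Thus in fasted liver the Psmb8 and Psmb9 ratios were lower and the Psmb10 ratio higher in both HRD1Alb samples than in both WT samples. After refeeding the Psmb9 ratio was 0.0916 and 0.101 in WT and 0.0561 and 0.0902 in HRD1Alb refed libraries. The Psmb10 ratio was 0.162 and 0.182 against 0.262 and 0.405. Both kept their fasted direction in each refed library, but the Psmb9 ratio of HRD1Alb refed replicate 2 (0.0902) lay close to WT refed replicate 1 (0.0916). The Psmb8 ratio lay on both sides of WT. Library scaling cancels in these ratios. The length trend of HRD1Alb refed replicate 2 does not cancel where lengths differ, as for Psmb9 (1352 bases) and Psmb6 (798 bases). An exact permutation test of 2 against 2 samples cannot give a two-sided p below 0.333, and none is reported. The ratios are of counts not scaled by length.

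**Figure D4:**
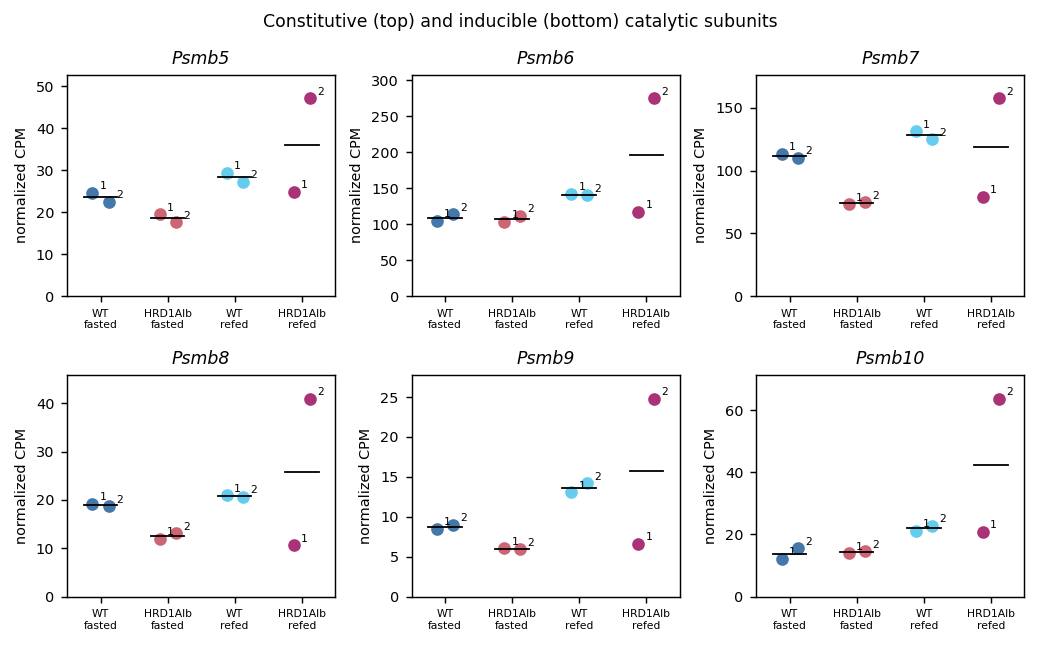
Normalized CPM (y axis, from 0) of the constitutive catalytic subunits Psmb5, Psmb6 and Psmb7 (top) and the inducible Psmb8, Psmb9 and Psmb10 (bottom) in each sample, by group (x axis); digits give the replicate and lines the mean of the 2 samples. HRD1Alb refed replicate 2 is the highest sample in all 6 panels, and Psmb8 ranges from 10.6 to 41.0 CPM within that group.

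Leukocytes express the inducible subunits strongly, and leukocyte markers are therefore given beside them. All 8 Kupffer cell and macrophage markers were higher in both HRD1Alb samples than in both WT samples in each feeding state. Of all tested genes, 30.6% in fasted and 30.7% in refed liver lay apart in this direction. With all 8 samples edgeR called 1 of the 8 higher in fasted and all 8 higher in refed liver. The shares of all tested genes called higher were 0.921% and 7.09%. The pan-leukocyte marker Ptprc was at 5.59 and 4.36 CPM in fasted WT and at 11.9 and 10.4 CPM in fasted HRD1Alb liver. Psmb8 and Psmb9 were lower in fasted HRD1Alb liver. In refed liver Ptprc was at 6.96 and 5.67 CPM in WT. In the HRD1Alb refed libraries Ptprc was at 14.5 CPM (replicate 1) and 11.3 CPM (replicate 2, the library with the transcript-length trend). Each of the 8 Kupffer cell and macrophage markers was higher in replicate 2, as was Psmb8. T and NK cell markers summed to 1.19 to 6.93 CPM and B cell markers to 2.02 to 5.39 CPM over the 8 samples, and the highest sum of both was in HRD1Alb refed replicate 2, as was that of the Kupffer cell markers (636 CPM, against 280 CPM in replicate 1). Within these sums Klrb1c (0.728 and 0.592 CPM in replicates 1 and 2) and Ms4a1 (0.474 and 0.416 CPM) were lower in replicate 2. No marker of the 3 lists was at 0 in any sample. The part of these cells in the values of Psmb8, Psmb9 and Psmb10 was not tested.

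Refeeding of WT mice was accompanied by small differences. Of the 47 tested genes 37 had a positive log2 fold change (43 with total-count scaling), with a median of 0.14 against 0.00 over all tested genes. In 29 genes both refed samples lay above both fasted ones and in 4 below (Psmd4, Psmd8, Psmd9 and Psmf1), where 30.8% and 29.6% of all tested genes did. edgeR called 0 genes in either direction with all 8 samples, where 1.2% of all tested genes were called higher and 1.41% lower. At an unadjusted p under 0.05 there were 1 higher (Psma3) and 1 lower (Psmd9), where 7.94% and 8.38% of all tested genes were. DESeq2 (3.61% higher and 4.29% lower over all tested genes) and limma-trend (1.32% and 1.51%) also called 0. With HRD1Alb refed replicate 2 left out, 9 genes were called higher (Psma1, Psma3, Psmb3, Psmb6, Psmb9, Psmb10, Psmc5, Psmd14 and Psmd5) and 1 lower (Psmd9), against backgrounds of 8.71% and 8.86%. Leaving out replicate 1 of that group instead also gave 9 and 1, against 8.8% and 8.88%.

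Psmd9 had the largest difference of any proteasome gene on refeeding of WT mice. It was at 102 and 101 CPM in fasted and at 57.1 and 52.6 CPM in refed WT liver, with a log2 fold change of -0.89 ± 0.27 (adjusted p = 0.153, edgeR) and, without HRD1Alb refed replicate 2, of -0.89 ± 0.08 (adjusted p = 0.00145). In HRD1Alb it was at 67.8 and 68.4 CPM fasted and at 47.9 and 88.2 CPM refed, the refed libraries lying on both sides of the fasted ones. Psma3 was at 15.04 and 14.4 CPM in fasted and at 20.5 and 18.8 CPM in refed WT liver (0.42 ± 0.16, adjusted p = 0.257). Psmb9 went from 8.45 and 9.03 CPM to 13.1 and 14.2 CPM, a log2 difference of 0.64 ± 0.51 with all 8 samples and 0.64 ± 0.12 without that library (adjusted p = 0.631 and 0.0136).

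Refeeding of HRD1Alb mice gave positive log2 fold changes in 43 of 47 genes, with a median of 0.71 against 0.02 over all tested genes. In 36 genes both refed libraries lay above both fasted ones and in 2 (Psme4 and Psmf1) below, where 29.2% and 29.5% of all tested genes did. edgeR called 4 genes higher (Psma1, Psmc5, Psmd14 and Psmd5) and 0 lower, with backgrounds of 5.43% and 5.05%. At an unadjusted p under 0.05 there were 28 higher and 1 lower (all tested genes, 17.2% and 14.5%). DESeq2 called 14 higher and 0 lower (11.1% and 9.9%), and limma-trend 2 and 0 (4.91% and 5.21%). Without HRD1Alb refed replicate 2 the median was 0.20, and 10 genes were called higher and 2 lower (Psmd9 and Psmf1), with backgrounds of 11% and 9.28%. Without replicate 1 the median was 1.14 and 40 genes were called higher and 1 lower, where 25.2% and 27% of all tested genes were.

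Psmd5, Psmd14, Psmc5 and Psma1 rose in HRD1Alb liver with each of the refed libraries. Of the 18 alternatives, 11 kept the call for Psmd5, 11 for Psmd14, 9 for Psmc5 and 6 for Psma1. Psmd5 was at 28.5 CPM in both fasted samples and at 58.6 and 48.7 CPM in the refed ones, 1.88-fold higher (log2 0.91 ± 0.17, adjusted p = 0.0199, edgeR, range over alternatives 6.76e-05 to 0.168). Psmd14 was at 36.8 and 33.8 CPM fasted and at 56.0 and 84.1 CPM refed (0.99 ± 0.21, adjusted p = 0.03, range 0.000116 to 0.219). Psmc5 was at 64.7 and 66.2 CPM fasted and at 98.8 and 185 CPM refed (1.119 ± 0.27, adjusted p = 0.0449, range 7.52e-05 to 0.242). Psma1 was at 65.5 and 64.3 CPM fasted and at 90.5 and 132 CPM refed (0.78 ± 0.20, adjusted p = 0.0492, range 0.000209 to 0.262). Without HRD1Alb refed replicate 2 all 4 were called higher, with log2 fold changes of 1.04, 0.66, 0.59 and 0.48. The same 4 genes were called higher in WT without that library, with 0.38, 0.48, 0.38 and 0.33.

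**Figure D5:**
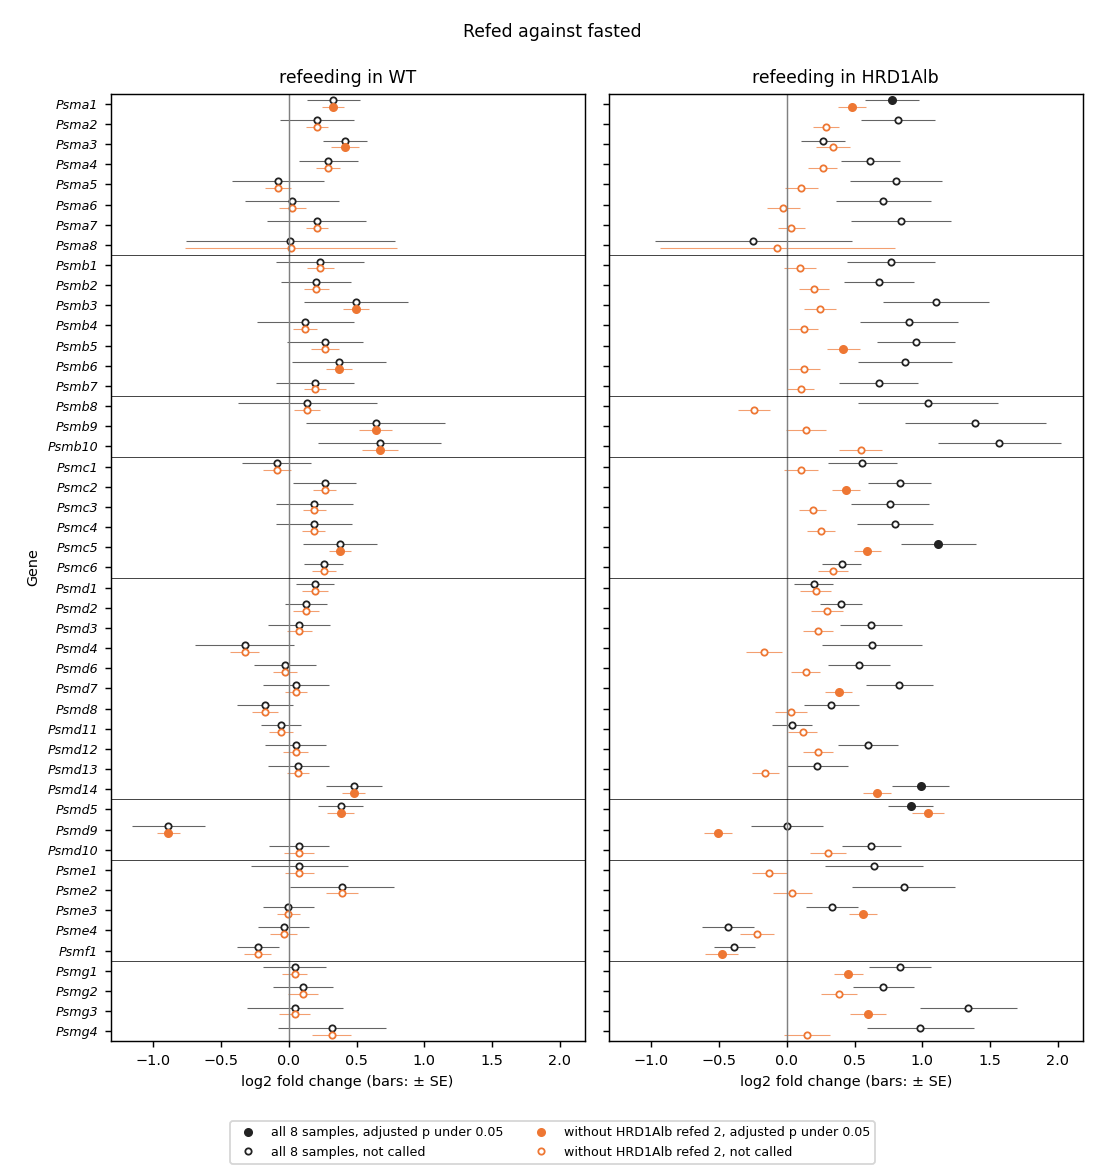
log2 fold change of refed against fasted liver (x axis, bars ± SE) for the 47 tested proteasome genes (y axis) in WT (left) and HRD1Alb (right), with all 8 samples (black) and without HRD1Alb refed replicate 2 (orange); filled points have an adjusted p under 0.05. In WT 37 values are positive in both fits (43 with total-count scaling), and in HRD1Alb 43 and 38 are, with medians of 0.71 and 0.20.

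The interaction, which asks whether the response to refeeding differed between genotypes, was called for 0 of the 47 genes by edgeR, DESeq2 and limma-trend, where 0% of all tested genes were called by edgeR and by limma-trend in either direction and 0.355% higher and 0.318% lower by DESeq2. The median was 0.56 with all 8 samples, 0.08 without HRD1Alb refed replicate 2 and 0.98 without replicate 1. At an unadjusted p under 0.05 there were 3 higher with all 8 samples (Psmg3, Psmg1 and Psmd9) and 0 lower, where 4.41% and 4.03% of all tested genes were. Without HRD1Alb refed replicate 2 there were 0 called, with 0.489% of all tested genes called higher and 0.251% lower, and without replicate 1 there were 37 higher and 1 lower, where 15.8% and 18.3% of all tested genes were. For Psmg3 the value was 1.30 ± 0.50 with all 8 samples and 0.56 ± 0.17 without replicate 2 (adjusted p = 0.583 and 0.188).

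Genes outside the naming rule that work with the proteasome were read in the same fits, so that the shares of all tested genes called, given above for each comparison, apply to the lists too. Of 14 proteasome partners, 12 had negative log2 fold changes in fasted liver, with a median of -0.38. With all 8 samples edgeR called 0 in either direction (5 lower at an unadjusted p under 0.05), and without HRD1Alb refed replicate 2 it called 7 lower and 0 higher, where 11.8% and 10% of all tested genes were. Among the latter were the deubiquitinase Usp14 (70.4 and 62.1 CPM in WT, 41.0 and 36.7 CPM in HRD1Alb liver), the ubiquitin receptor Adrm1 (23.8 and 20.2 CPM against 13.4 and 14.7 CPM) and the core maturation factor Pomp (89.1 and 98.3 CPM against 67.5 and 67.4 CPM). In refed liver Usp14 fell by 0.66 on the log2 scale in the libraries labelled HRD1Alb (adjusted p = 0.042, edgeR, 8 samples).

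The 8 regulators of proteasome transcription did not move as a block. Nfe2l1 was at 169.9 and 167 CPM in fasted WT, at 149 and 148 CPM in fasted HRD1Alb, at 134 and 130.4 CPM in WT refed, and at 223 and 115 CPM in the HRD1Alb refed libraries. Nfe2l2 was at 60.9 and 63.4 CPM in fasted WT, 75.5 and 82.3 CPM in fasted HRD1Alb, 95.1 and 95.8 CPM in WT refed and 127 and 119 CPM in HRD1Alb refed libraries, and it rose with refeeding of HRD1Alb mice by a log2 of 0.64 (adjusted p = 0.0344, edgeR). In both feeding states its HRD1Alb values lay above its WT values. Ddi2, the protease that activates NRF1, was at 27.1 and 2.06 CPM in the HRD1Alb refed libraries against 35.4 to 51.8 CPM in WT samples. In fasted HRD1Alb liver it was at 38.4 and 39.8 CPM. The 2.06 CPM came from replicate 2, the library with the transcript-length trend. Against WT refed the log2 fold change was -1.44 ± 0.88 with all 8 samples (adjusted p = 0.277, edgeR) and -0.55 without that library. Without HRD1Alb refed replicate 2 edgeR called 1 regulator higher and 2 lower in fasted liver and 3 higher and 2 lower in refed liver (all tested genes, 12.4% and 11.9%), and with all 8 samples 0 in fasted liver (2 higher and 1 lower at an unadjusted p under 0.05) and 1 lower in refed liver (Mafg).

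Of 13 genes for the extraction of ER proteins, 9 had negative log2 fold changes in fasted liver and 4 positive. Vcp, the ATPase that draws substrates from the ER, was at 121 and 124 CPM in fasted WT and at 65.0 and 72.3 CPM in fasted HRD1Alb liver, and was called lower without HRD1Alb refed replicate 2 (log2 -0.83 ± 0.11, adjusted p = 0.00518, edgeR). Derl3, a channel component induced by ER stress, was at 5.99 and 3.07 CPM against 94.8 and 69.7 CPM. Of this list edgeR called 0 with all 8 samples (1 higher and 5 lower at an unadjusted p under 0.05) and 1 higher and 6 lower without that library (all tested genes, 10% and 11.8%), which included Syvn1 itself. Of 11 genes for MHC class I peptide loading and its interferon control, 8 had negative values in fasted liver, and 0 and 4, including B2m, Tap1 and Tap2, were called lower with all 8 samples and without that library. With all 8 samples 1 was higher and 2 lower at an unadjusted p under 0.05. Tap1, whose exons overlap those of Psmb9 on the other strand, was at 36.8 and 32.1 CPM in fasted WT and at 18.5 and 21.3 CPM in fasted HRD1Alb liver. Of 6 genes for ubiquitin and its activation, only the activating enzyme Uba1 was called without that library (lower, 217 and 225 CPM against 159 and 159 CPM), and 0 with all 8 samples (1 lower at an unadjusted p under 0.05). Rps27a, which encodes ubiquitin fused to a ribosomal protein, and Ubb have near-identical copies, and how the counting split their reads is not given in the sources used here.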

How the data were processed

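Liver RNA from 8 mouse samples in 4 groups of 2 was sequenced by the authors on an Illumina NextSeq 500. The deposited values are whole-number counts per gene symbol, one file per sample, not normalized. By the study's methods counts came from ERANGE and were tested with limma; the submitters' processing notes name cutadapt, STAR, HTSeq, DESeq2 and mm10. Which tool made the counts, the annotation and the use of strand are not given in the sources used here.

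Counts were analysed with edgeR 4.0.16 in R 4.3.3: filterByExpr (minimum count 10, minimum total 15), TMM, and a quasi-likelihood model with 4 group coefficients over 8 samples and 5 contrasts. Adjusted p-values (Benjamini-Hochberg) cover all 14328 tested genes, and genes were called under 0.05. SE is the absolute log2 fold change over the square root of F. Alternatives used DESeq2 1.42.0, limma 3.58.1, other scalings and filters, a loess correction for transcript length (span 0.3), the replicate block and each sample left out. Scaling by total counts was chosen after seeing the data. Lengths and positions came from GENCODE M21. Older symbols (Emr1, AI314180, Shfm1, Ufd1l) were matched through RefSeq synonyms. Scripts were tested on simulated data.

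The genes and lists were chosen with earlier results of these data known. Named with values were genes called in any contrast, the highest and lowest mean CPM of each subcomplex, the catalytic subunits, activators, 20S assembly chaperones and genes not tested; other genes named came from lists, or were named after their values were seen. Floors and counts cover counting error only, and the SEs include the spread between samples as the fit estimates it. No batch is labelled. Protein sequences were not used here. Shares of all genes called by DESeq2 are over the genes to which it gave an adjusted p. Some genes of the lists are not reported here by name.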

Additional observations from a re-analysis of the deposited data

How the results depend on the processing

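The counts of called proteasome genes changed most when an HRD1Alb refed library was left out. The shares of all tested genes called changed between fits as well. In the fasted comparison 0.433% were called lower in the main fit, 0.328% with total-count scaling, 3.11% with DESeq2 and 6.32% with the 4 samples. Shares for some fits, such as the replicate block, are not given here. The counts below therefore describe the fits and are not results about the proteasome genes. In the fasted genotype comparison the 1 gene called lower became 6 with DESeq2, 3 with limma-trend, 22 with the 4 samples of the contrast, 0 with the replicate block, 11 with the length correction, 7 with both, and 0 with total-count scaling; leaving out 1 sample gave 0 to 30 lower and 0 to 1 higher. In the refed genotype comparison the 4 lower became 2 with at least 10 counts in every sample, 0 with the 4 samples and 0 with total-count scaling, and the 0 higher became 2 with DESeq2 and 4 with total-count scaling; leaving out 1 sample gave 0 to 23 lower and 0 to 30 higher. For refeeding in WT the 4 samples alone gave 5 higher and 1 lower, and leaving out 1 sample gave 0 to 9 higher and 0 to 1 lower. For refeeding in HRD1Alb the 4 higher became 14 with DESeq2, 2 with limma-trend, 0 with the 4 samples and 2 with the replicate block, and leaving out 1 sample gave 0 to 40 higher and 0 to 2 lower. For the interaction, leaving out 1 sample gave 0 to 37 higher and 0 to 1 lower. Other alternatives stayed within 1.5 times the count.

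The 9 called values reversed in none of the alternatives computed, keeping the call in 83 recomputed values and losing it in 79. Medians moved by less than the spread between replicates in 328 recomputed values and by more in 49, all with the length correction, total-count scaling or without an HRD1Alb refed library. Total-count scaling moved the median of all tested genes by 0.38 in the fasted and 0.22 in the refed genotype comparison, by 0.15 for refeeding in WT and by -0.16 for the interaction, and the length correction moved it by -0.11 and -0.10 in the genotype comparisons. Relative to the median of all tested genes, the fasted median ran from -0.50 to -0.41 and the refed one from -0.40 to 0.49. Samples of different groups share only a replicate number, and deviations of same-numbered samples correlated at 0.00775 to 0.202 (mean 0.0796), so the replicate block is given only here. The 3-count floor and 2 samples a group limit what can be shown for Psma8 and Psmb11.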
